A study of Homo sapiens with 12 samples.

Results

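The ERK feedback genes are a small set of genes whose transcription rises when the RAS to ERK kinase cascade is active and whose products act back on that cascade. The members, taken by name from what is known of the pathway and chosen with earlier results of these data known, are DUSP4, DUSP5, DUSP6, SPRY1, SPRY2, SPRY4, SPRED1, SPRED2, ETV4 and ETV5. They make up 10 of the 22784 gene symbols with values, and 8 of them passed the filter on low values, which kept 14839 genes. RNA was measured by strand-specific total RNA sequencing in SK-UT-1, a cell line established from a human uterine leiomyosarcoma, a malignant tumour of uterine smooth muscle. Cells received the vehicle DMSO (3 libraries analysed), JQ1 at 5 µM (4 libraries) or I-BET 762, also at 5 µM (3 libraries), and were kept in it for 48 h. The study asked how BET inhibition changes the transcriptome of these tumour cells. All groups are cultures of this single line, and no genotype or other agent separates them.

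JQ1 and I-BET 762 occupy the acetyl-lysine pockets of the bromodomain and extra-terminal (BET) proteins, chromatin readers that help to recruit the transcription elongation machinery. In the ERK pathway, growth factor receptors load RAS with GTP, RAS activates the RAF kinases, RAF activates MEK, and MEK phosphorylates ERK. Active ERK induces phosphatases of the DUSP family that remove the activating phosphates, Sprouty and SPRED proteins that act at the level of receptor, RAS and RAF, and the PEA3 factors ETV4 and ETV5, which carry part of the transcriptional output. For this reason these genes are widely read as a transcript signature of ERK output. The phosphorylation of ERK itself was not measured in these libraries.

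Each library held 35564586 to 39658989 reads on genes. HEXIM1, a transcript that commonly rises under BET inhibition, went from 1627 ± 22.6 normalized counts with DMSO to 4718 ± 218 with JQ1 and 3370.4 ± 142 with I-BET 762 (mean ± SD). The labelled cell type was checked against its markers: 6 of 7 smooth muscle markers had values, and their summed level was 20339.6 to 20967.7 normalized counts with DMSO, 10617.9 to 11228.8 with JQ1 and 11757.6 to 12326.8 with I-BET 762. MYH11 was not analysed here. Of the 6, 5 fell with each inhibitor, where 22.8% of all tested genes fell with JQ1 and 17.9% with I-BET 762. The 3 mesenchymal markers, mostly VIM, summed to 111083 to 119625 normalized counts with DMSO, 150467 to 161796 with JQ1 and 124297 to 127206 with I-BET 762. Of the 3, 1 rose with each inhibitor, FN1 (log2 0.95 and 0.80), where 13.3% of all tested genes rose with JQ1 and 8.96% with I-BET 762. The epithelial markers summed to 1211.6 to 1271 normalized counts with DMSO, 511 to 602 with JQ1 and 497 to 544 with I-BET 762. The part of these shifts in the results on the feedback genes was not tested. The endothelial markers summed to at most 7.40 normalized counts in any DMSO library. Of the immune markers, the leukocyte gene PTPRC was at 0 in all DMSO and JQ1 libraries, which allows up to 3 reads in each. CD14 was low but present, at 28.9 ± 6.40 normalized counts with DMSO, 32.5 ± 3.91 with JQ1 and 20.1 ± 2.21 with I-BET 762. It was higher with JQ1 than with I-BET 762 (log2 0.66, limma adjusted p = 0.0387). CD3E was not analysed here. In bulk RNA, fewer cells that express a gene and less RNA per cell cannot be told apart.

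JQ1 raised 6 of the 8 tested feedback genes and lowered none, where 13.3% of all tested genes rose and 22.8% fell. I-BET 762 raised 5 of the 8 and lowered none, where 8.96% of all tested genes rose and 17.9% fell. A gene was called changed when its adjusted p was under 0.05 and its fold change was over 1.5 (limma on log2 values, Benjamini-Hochberg adjustment over all 14839 genes). The 5 genes raised by both inhibitors were DUSP5, DUSP6, SPRY2, SPRY4 and ETV5, and 7.86% of all tested genes were raised by both. All 8 differences were above 0 with each inhibitor, as were 7512 of the 14839 tested genes with JQ1 and 7405 with I-BET 762. ETV4 passed both limits with JQ1 and only the limit on p with I-BET 762. The median log2 difference of the 8 was 1.23 with JQ1 and 0.71 with I-BET 762, against 0.01 and -0.00063 over all tested genes. For all 8 every JQ1 library lay above every DMSO library, as for 34.1% of all tested genes, and for 7 every I-BET 762 library did, as for 34.8%. Without the limit on fold, 8 were higher with JQ1 (36.0% of all tested genes) and 7 with I-BET 762 (29.9%), which became 7 and 6 with equal library totals. Without DMSO replicate 13 the I-BET 762 count was also 6. Both comparisons use the same DMSO libraries. Nothing in the labels says that the libraries came from separate cultures, so the p-values measure the spread between these libraries, which may be technical.

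**Figure D1:**
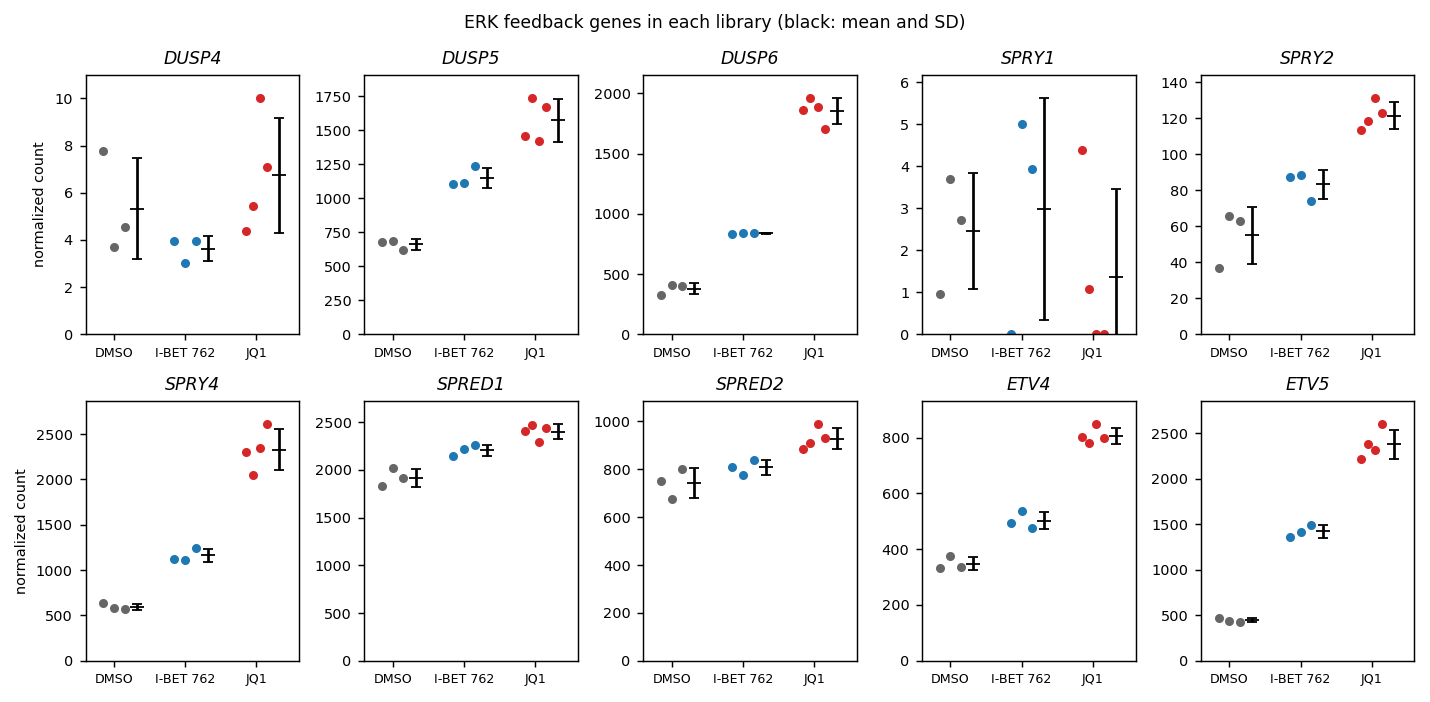
Normalized counts of the 10 ERK feedback genes in each library (vertical axis, linear, a separate scale per gene) for DMSO (grey), I-BET 762 (blue) and JQ1 (red). Black marks give the mean and SD, and the SD bars are cut at 0 for SPRY1. For the 8 genes other than DUSP4 and SPRY1, all 4 JQ1 libraries lie above all DMSO and all I-BET 762 libraries.

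DUSP6 is a cytoplasmic phosphatase with a strong preference for ERK (ENSG00000139318.8, chromosome 12, 89347235 to 89352501, minus strand of GRCh38). Its normalized counts were 325, 411 and 406 in the DMSO libraries, 1865, 1959.5, 1883 and 1706 in the JQ1 libraries, and 836, 842 and 841 in the I-BET 762 libraries. The 3 groups did not overlap, and the I-BET 762 libraries sat between the others with almost no spread. The level was 4.88-fold higher with JQ1 than with DMSO (log2 2.29, SE 0.08, limma adjusted p = 7.19e-13). It was 2.21-fold higher with I-BET 762 (log2 1.15, SE 0.08, limma adjusted p = 1.18e-08). Of the 3859 exon bases of DUSP6, 1105 (28.6%) are shared with a long non-coding RNA gene on the opposite strand, ENSG00000274021, which has no values here. The strand setting of the counting is not given in the sources used here, so reads of that gene could enter the DUSP6 value.

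DUSP5 is a nuclear phosphatase that acts on ERK and also anchors it in the nucleus (ENSG00000138166.6, chromosome 10, 110497907 to 110511533, plus strand). Normalized counts were 681, 685 and 618 with DMSO, 1460.3, 1736, 1421 and 1674 with JQ1, and 1105, 1115 and 1234 with I-BET 762. No library of an inhibitor reached down to the DMSO range, and JQ1 replicates 17 and 19 were lower than 18 and 20. The rise was 2.37-fold with JQ1 (log2 1.24, SE 0.08, limma adjusted p = 5.97e-10) and 1.74-fold with I-BET 762 (log2 0.80, SE 0.08, limma adjusted p = 4.73e-07).

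DUSP4, an inducible nuclear phosphatase that acts on ERK and on the stress kinases (chromosome 8, 29333064 to 29350684, minus strand), was close to the floor of detection. The libraries held 7.75, 3.70 and 4.55 normalized counts with DMSO, 4.40, 5.44, 10.004 and 7.10 with JQ1, and 3.94, 3.01 and 3.94 with I-BET 762. These values stand for 3 to 10 reads a library, and DUSP4 did not pass the filter. Both inhibitor groups overlap the DMSO libraries, while the lowest JQ1 library lies just above the highest I-BET 762 library, all within a few reads. In a fit with no filter its log2 difference was 0.29 with JQ1 (limma adjusted p = 0.587) and -0.41 with I-BET 762 (limma adjusted p = 0.502), so a change was not detectable at this depth.

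SPRY4, a Sprouty protein that is induced by ERK and inhibits signalling from receptor tyrosine kinases, had the largest JQ1 difference of the Sprouty genes tested (ENSG00000187678.10, chromosome 5, 142310427 to 142326455, minus strand). Its normalized counts were 632, 583 and 566 with DMSO, 2299, 2054, 2342 and 2607 with JQ1, and 1124, 1113 and 1249 with I-BET 762. The 3 groups stood clear of each other. SPRY4 rose 3.90-fold with JQ1 (log2 1.96, SE 0.08, limma adjusted p = 2.57e-12) and 1.95-fold with I-BET 762 (log2 0.97, SE 0.08, limma adjusted p = 4.88e-08). The antisense gene SPRY4-AS1 overlaps the locus but shares 0 exon bases with SPRY4. It had 39.7 ± 10.4 normalized counts with DMSO, 82.6 ± 9.82 with JQ1 and 36.9 ± 10.8 with I-BET 762. It rose with JQ1 (log2 1.07, limma adjusted p = 0.000566), and its log2 difference with I-BET 762 was -0.11 (limma adjusted p = 0.710).

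SPRY2, the Sprouty protein best known for interrupting the step from receptor to RAS, was a low transcript in this line (ENSG00000136158.12, chromosome 13, 80335976 to 80341126, minus strand). Its normalized counts were 36.8, 65.6 and 62.8 with DMSO, 113, 119, 131 and 123 with JQ1, and 87.6, 88.2 and 73.8 with I-BET 762. The groups did not overlap, but DMSO replicate 13 lay well under the other DMSO libraries. SPRY2 rose 2.25-fold with JQ1 (log2 1.17, SE 0.18, limma adjusted p = 2.64e-05) and 1.54-fold with I-BET 762 (log2 0.63, SE 0.19, limma adjusted p = 0.0106). The I-BET 762 call rests on that DMSO library: without DMSO replicate 13 the log2 difference was 0.36 (limma adjusted p = 0.0610). The call was also lost without I-BET 762 replicate 22 (log2 0.58, limma adjusted p = 0.0392, under 1.5-fold) and with libraries rescaled to equal totals (log2 0.53, limma adjusted p = 0.0275, under 1.5-fold).

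SPRY1, the third Sprouty gene listed (chromosome 4, 123396795 to 123403760, plus strand), was at or near 0. The libraries held 0.969, 3.70 and 2.73 normalized counts with DMSO, 4.40, 1.09, 0 and 0 with JQ1, and 0, 5.01 and 3.94 with I-BET 762. These are 0 to 5 reads a library, where 3 reads correspond to 2.73 to 3.30 normalized counts, and no fold change is given. Of the listed Sprouty genes, SPRY4 had the highest level per kilobase of exon with DMSO, at 90.6 normalized counts, against 17.1 for SPRY2 and 0.622 for SPRY1.

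The SPRED genes encode relatives of Sprouty that bring the RAS-inactivating protein neurofibromin to the membrane, and they moved least. SPRED1 (ENSG00000166068.13, chromosome 15, 38252836 to 38357249, plus strand) had 1829, 2018 and 1912 normalized counts with DMSO, 2403, 2468, 2293 and 2437 with JQ1, and 2147, 2217 and 2259 with I-BET 762. Every treated library was above every DMSO library. The difference was 1.25-fold with JQ1 (log2 0.32, SE 0.05, limma adjusted p = 2.67e-05) and 1.15-fold with I-BET 762 (log2 0.20, SE 0.05, limma adjusted p = 0.00393), both under the 1.5-fold limit.

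SPRED2 (ENSG00000198369.10, chromosome 2, 65310851 to 65432637, minus strand) had 752, 674 and 801 normalized counts with DMSO, 885, 911, 987 and 932 with JQ1, and 809, 776 and 839 with I-BET 762. The JQ1 libraries were above all others, while the I-BET 762 and DMSO libraries overlapped. The difference was 1.25-fold with JQ1 (log2 0.33, SE 0.07, limma adjusted p = 0.000503). With I-BET 762 it was 1.09-fold (log2 0.13, 95% interval -0.03 to 0.28, limma adjusted p = 0.152). Both SPRED differences depend on the scaling: with equal library totals the median of all genes moved to -0.18 with JQ1, and the JQ1 differences became 0.14 for SPRED1 (limma adjusted p = 0.0150) and 0.14 for SPRED2 (limma adjusted p = 0.1005). In the same setting the I-BET 762 differences were 0.11 for SPRED1 (limma adjusted p = 0.0747) and 0.03 for SPRED2 (limma adjusted p = 0.766).

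ETV5, a PEA3 member of the ETS transcription factors, had the largest difference of all the tested feedback genes with each inhibitor (ENSG00000244405.8, chromosome 3, 186046314 to 186110318, minus strand). Its normalized counts were 469.7, 440.1 and 429 with DMSO, 2219, 2383, 2316 and 2599 with JQ1, and 1359, 1417 and 1496 with I-BET 762. The 3 groups were far apart compared with the spread within each. The rise was 5.32-fold with JQ1 (log2 2.41, SE 0.06, limma adjusted p = 4.74e-14) and 3.19-fold with I-BET 762 (log2 1.67, SE 0.07, limma adjusted p = 1.67e-11).

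ETV4, its close relative and a driver of invasive behaviour in several carcinomas, responded less (ENSG00000175832.13, chromosome 17, 43527844 to 43579620, minus strand). Its normalized counts were 334, 375 and 337 with DMSO, 802, 780.1, 847 and 797 with JQ1, and 495, 535 and 476 with I-BET 762. The groups did not overlap. ETV4 rose 2.31-fold with JQ1 (log2 1.21, SE 0.07, limma adjusted p = 4.02e-10), and with I-BET 762 its level was 1.44-fold that with DMSO (log2 0.53, SE 0.08, limma adjusted p = 2.19e-05), under the 1.5-fold limit. ETV4 shares 68 exon bases (1.94%) with DHX8 on the opposite strand, and ETV5 shares 164 (2.84%) with DGKG on the same strand.

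Promoter sequence was read for the members with an entry in RefSeq (GRCh38.p14), as the 250 bases before each start. Entries were found for 6 members, with 10 windows in all, and none for DUSP4, DUSP5, ETV4 and ETV5. The core of the PEA3 site, AGGAAG on either strand, holds the GGAA core that ETS factors such as ETV4 and ETV5 bind. It occurred in 8 of the 10 windows, from 5 members (DUSP6, SPRY1, SPRY2, SPRED1 and SPRED2), and in 28.7% of all 35116 windows of this length. Of these 5, SPRY1 was not tested, and SPRED1 and SPRED2 stayed under the 1.5-fold limit. The window of SPRY4, which rose with both inhibitors, held no match. Windows of the same gene are not independent, and a match is a description of letters and not of binding. Searched in the same way, TGAATGAA or TGAATGGA (forms of the octamer bound by the repressor Capicua) occurred in 2.19% of all windows. TGANTCA (AP-1) occurred in 6.57%, TGACGTCA (the cyclic AMP response element) in 1.65% and the SRF CArG box in 1.16%. None of these patterns occurred in the member windows. Other forms of the Capicua octamer were not searched, so an absence of Capicua sites from the member windows is not shown. The windows at the outermost start of DUSP6 and SPRY2, which rose, and of SPRED1, which stayed under the 1.5-fold limit, are shown 5′ to 3′ on the strand of the gene, with the PEA3 site letters in capitals, to set a matching site beside unequal responses. They lie at chr12:89352502-89352751 (minus strand, within an exon of ENSG00000274021), chr13:80341127-80341376 (minus strand) and chr15:38252586-38252835 (plus strand).
DUSP6: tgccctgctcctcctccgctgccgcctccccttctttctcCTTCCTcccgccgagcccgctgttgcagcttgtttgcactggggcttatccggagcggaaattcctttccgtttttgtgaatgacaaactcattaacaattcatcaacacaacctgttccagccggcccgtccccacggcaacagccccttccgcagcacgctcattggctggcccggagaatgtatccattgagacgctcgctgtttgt
SPRY2: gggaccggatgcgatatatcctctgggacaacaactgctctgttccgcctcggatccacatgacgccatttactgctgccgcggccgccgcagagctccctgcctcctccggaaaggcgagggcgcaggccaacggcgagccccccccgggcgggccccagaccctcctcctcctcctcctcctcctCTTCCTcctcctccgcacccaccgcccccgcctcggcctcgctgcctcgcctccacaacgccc
SPRED1: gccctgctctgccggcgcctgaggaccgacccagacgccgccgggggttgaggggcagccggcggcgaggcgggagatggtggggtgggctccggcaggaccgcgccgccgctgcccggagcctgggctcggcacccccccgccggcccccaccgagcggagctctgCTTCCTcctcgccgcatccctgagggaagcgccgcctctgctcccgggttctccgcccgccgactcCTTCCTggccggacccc
The site begins 210 bases before the start in DUSP6, 63 in SPRY2, and 83 and 17 in SPRED1. All of these are read here as CTTCCT, the reverse complement of AGGAAG.

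JQ1 and I-BET 762 share a triazole fused to a diazepine ring and differ, among other groups, in the ring fused to the other side of it, a thiophene in JQ1 and a benzene in I-BET 762. They were applied at the same concentration and for the same time, so their readouts were compared directly. JQ1 gave higher levels than I-BET 762 for 4 of the 8 tested feedback genes and lower levels for none, where 1.73% of all tested genes were higher and 3.59% lower. The 4 were DUSP6, SPRY4, ETV4 and ETV5. All 8 genes had every JQ1 library above every I-BET 762 library, an order found for 17.5% of all tested genes. Without the limit on fold, 7 were higher with JQ1 than with I-BET 762 (13.3% of all tested genes). That count is not stable: it was 5 with equal library totals, with no filter, with no intensity trend, and without JQ1 replicate 19, JQ1 replicate 20 or any single I-BET 762 library, each time without SPRY2 and SPRED2. With equal upper quartiles it was 6, without SPRED2. This is a single pair of compounds, and each p was adjusted over all 14839 genes.

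DUSP6, the cytoplasmic ERK phosphatase, showed the widest gap between the compounds, 2.2-fold (log2 1.14, 95% interval 0.97 to 1.31, limma adjusted p = 1.51e-07). SPRY4 differed by 2.0-fold (log2 1.0, 0.84 to 1.16, limma adjusted p = 3.69e-07). Among the PEA3 factors, ETV5 differed by 1.67-fold (log2 0.74, 0.60 to 0.87, limma adjusted p = 1.17e-06) and ETV4 by 1.61-fold (log2 0.68, 0.53 to 0.84, limma adjusted p = 7.88e-06). These 4 gaps exceed the spread between libraries and the 1.5-fold limit.

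The other 4 did not reach 1.5-fold. DUSP5 was 1.4-fold higher with JQ1 than with I-BET 762 (log2 0.45, 95% interval 0.28 to 0.61, limma adjusted p = 0.000553) and SPRY2 1.46-fold (log2 0.54, 0.16 to 0.93, limma adjusted p = 0.0368). For SPRED2 the difference was log2 0.20 (0.05 to 0.35, limma adjusted p = 0.0411), and for SPRED1 it was log2 0.12 (0.01 to 0.23, limma adjusted p = 0.0881). A p above the threshold does not show that the compounds act alike on SPRED1, and its interval allows a difference of up to 0.23.

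**Figure D2:**
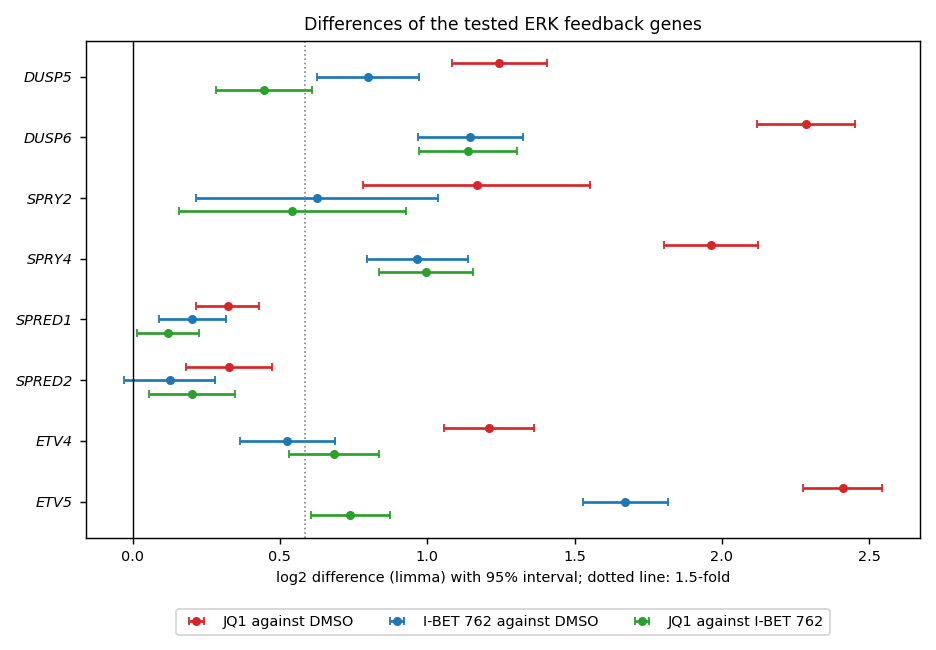
Log2 differences (horizontal axis, limma) of the 8 tested ERK feedback genes for JQ1 against DMSO (red), I-BET 762 against DMSO (blue) and JQ1 against I-BET 762 (green), with 95% intervals and a dotted line at 1.5-fold. The JQ1 differences run from 0.32 for SPRED1 to 2.41 for ETV5, and the I-BET 762 interval of SPRED2 includes 0.

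Levels were compared between genes as normalized counts per kilobase of exon. With DMSO, DUSP5 (261 ± 14.8) and SPRED1 (248 ± 12.3) stood highest, with library ranges of 244 to 270 and 236 to 260 that overlap. SPRED2 followed at 135 ± 11.6. Next came a group at 99.2 ± 6.57 for ETV4, 98.7 ± 12.5 for DUSP6 and 90.6 ± 5.25 for SPRY4, whose library ranges overlap, and ETV5 stood under them at 77.3 ± 3.67. SPRY2 had 17.1 ± 4.95, and DUSP4 and SPRY1 had 0.733 and 0.622.

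The order changed with treatment. With JQ1 the levels per kilobase were 620 ± 61.4 for DUSP5, 480.2 ± 27.6 for DUSP6, 412 ± 27.9 for ETV5 and 355 ± 34.5 for SPRY4, ahead of SPRED1 at 310 ± 9.83, whose range of 296 to 318 meets that of SPRY4. The ranges of DUSP6 and ETV5 overlap (442 to 508 and 384 to 450.1), as do those of ETV5 and SPRY4 (313 to 398 for the latter). ETV4 at 230 ± 8.17, SPRED2 at 169 ± 7.94 and SPRY2 at 37.8 ± 2.35 came last among the tested genes. With I-BET 762 the order was DUSP5 at 454 ± 28.4, SPRED1 at 285 ± 7.31, ETV5 at 247 ± 12.0, DUSP6 at 218 ± 0.777 and SPRY4 at 177 ± 11.6. SPRED2 and ETV4 followed at 147 ± 5.70 and 143 ± 8.57, with overlapping ranges, and SPRY2 stood at 25.9 ± 2.53. ETV5 therefore moved from the seventh place with DMSO to the third with either inhibitor.

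**Figure D3:**
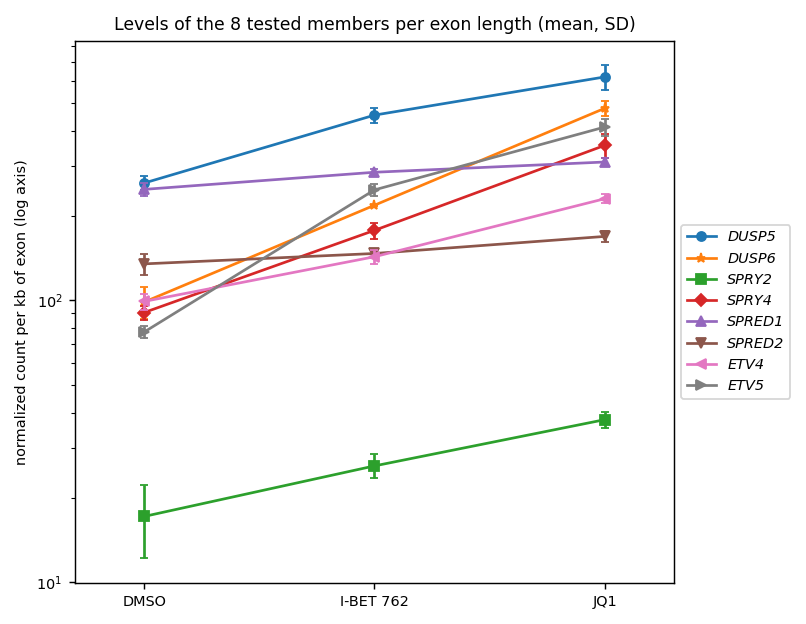
Normalized counts per kilobase of exon (vertical axis, log scale) of the 8 tested ERK feedback genes with DMSO, I-BET 762 and JQ1; points are means and bars the SD over 3, 3 and 4 libraries. ETV5, DUSP6 and SPRY4 cross the flatter lines of SPRED1 and SPRED2 between DMSO and JQ1.

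Among family relatives outside the set, more genes fell than rose, as over all tested genes. Of 10 listed relatives, 8 were tested, and DUSP8 and SPRY3 were too low. With JQ1, 1 rose and 4 fell, where 13.3% of all tested genes rose and 22.8% fell. With I-BET 762, 1 rose and 5 fell, where 8.96% of all tested genes rose and 17.9% fell. The median log2 differences were -0.53 with JQ1 and -0.73 with I-BET 762. DUSP9, a cytoplasmic ERK phosphatase closely related to DUSP6, fell from 188 ± 19.0 normalized counts to 37.8 ± 3.22 with JQ1 and 42.2 ± 8.08 with I-BET 762 (log2 -2.28 and -2.14, limma adjusted p = 4.24e-09 and 4.50e-08). SPRED3, the third SPRED gene, fell from 94.5 ± 8.91 to 28.2 ± 6.68 and 35.6 ± 3.24 (log2 -1.73 and -1.38, limma adjusted p = 9.89e-07 and 3.87e-05). ETV1, the third PEA3 factor, fell from 41.5 ± 11.4 to 16.3 ± 5.53 and 20.8 ± 7.05 (log2 -1.31 and -0.97, limma adjusted p = 0.00130 and 0.0183). Thus ETV1 and the other PEA3 genes, ETV4 and ETV5, went opposite ways with JQ1 in the same libraries.

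DUSP16 and DUSP10, phosphatases with a preference for the stress kinases JNK and p38, also went opposite ways. DUSP16 fell from 1075 ± 35.2 normalized counts to 539 ± 10.1 with JQ1 and 609 ± 31.0 with I-BET 762, and DUSP10 rose from 43.9 ± 6.85 to 79.2 ± 4.29 and 72.2 ± 6.87 (limma adjusted p = 0.000154 and 0.00165). DUSP1, an immediate early phosphatase, had 568 ± 34.0 normalized counts with DMSO, 737 ± 18.3 with JQ1 and 585 ± 25.9 with I-BET 762, under 1.5-fold in each comparison. DUSP2, a nuclear phosphatase, fell with I-BET 762 (log2 -0.63, limma adjusted p = 0.00182), and with JQ1 its log2 difference was 0.02 (limma adjusted p = 0.928). DUSP7, another cytoplasmic ERK phosphatase, had log2 differences of -0.07 with JQ1 and -0.29 with I-BET 762.

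Most of the other ERK-responsive genes listed rose with JQ1. Of 10, 9 rose and none fell with JQ1, where 13.3% of all tested genes rose and 22.8% fell. With I-BET 762, 5 rose and 1 fell, where 8.96% of all tested genes rose and 17.9% fell. The median log2 differences were 1.09 with JQ1 and 0.60 with I-BET 762. IER3, an immediate early survival gene, went from 52.6 ± 2.35 normalized counts with DMSO to 432 ± 30.9 with JQ1 and 176 ± 16.4 with I-BET 762 (log2 3.01 and 1.72, limma adjusted p = 9.70e-13 and 3.72e-09). HBEGF, which encodes a ligand of the EGF receptor, went from 102 ± 3.23 to 364 ± 32.5 and 271 ± 25.7. CCND1, the cyclin that links ERK to entry into the cell cycle, went from 5475 ± 125 to 11954 ± 1234 with JQ1, a called rise, and to 8197 ± 400.0 with I-BET 762, just under 1.5-fold. The remaining genes that rose with JQ1 were PHLDA1, EPHA2, EGR1, FOS, FOSL1 and EGR3, and with I-BET 762 PHLDA1, EPHA2 and EGR3 rose beside IER3 and HBEGF. EPHA4, an ephrin receptor, fell with I-BET 762 (log2 -0.61, limma adjusted p = 1.20e-07), and with JQ1 its log2 difference was -0.40. With equal library totals, 8 of these genes rose and 1 fell with JQ1, and the I-BET 762 counts were 3 and 1.

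Few genes of the kinase cascade itself passed both limits. Of 20 genes from RAS to ERK, 1 rose and 1 fell with JQ1 (limma), where 13.3% of all tested genes rose and 22.8% fell. With I-BET 762, 0 rose and 1 fell, where 8.96% of all tested genes rose and 17.9% fell. Without the limit on fold, 9 were higher and 7 lower with JQ1, where 36.0% of all tested genes were higher and 35.6% lower. With I-BET 762, 8 were higher and 6 lower, where the shares of all tested genes were 29.9% and 31.3%. The gene that fell was MAPK3, which encodes ERK1: it had 1114 ± 30.5 normalized counts with DMSO, 256 ± 14.0 with JQ1 and 372 ± 49.1 with I-BET 762 (log2 -2.12 and -1.59, limma adjusted p = 7.19e-12 and 1.27e-09). The gene that rose with JQ1 was the RAS pathway scaffold SHOC2, at log2 0.61, and this call was lost under both rescalings. The log2 differences with JQ1 and I-BET 762 were -0.06 and -0.03 for BRAF, 0.56 and 0.29 for MAP2K1, and 0.12 and -0.06 for MAP2K2. HRAS ranged from 1.0 to 91.5 normalized counts across libraries and was not called (log2 -2.02 with JQ1, limma adjusted p = 0.0650).

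Of 7 other negative regulators of the pathway, 1 rose and 1 fell with JQ1 (13.3% and 22.8% of all tested genes). With I-BET 762, 0 rose and 1 fell (8.96% and 17.9%). Without the limit on fold, 1 was higher and 5 lower with JQ1 (36.0% and 35.6% of all tested genes). With I-BET 762 these counts were 1 and 3 (29.9% and 31.3%). ERRFI1, an inhibitor of the EGF receptor, rose with JQ1 from 6151 ± 149.9 to 13004 ± 200.3 normalized counts (log2 1.08), and its log2 difference with I-BET 762 was 0.39. DAB2IP, a RAS GTPase-activating protein, fell with both (log2 -1.28 and -0.81). Capicua (CIC), the repressor of ETV4, ETV5 and several DUSP and SPRY genes that ERK inactivates, had 1155 ± 147 normalized counts with DMSO, 1186 ± 154 with JQ1 and 1283 ± 53.2 with I-BET 762 (log2 0.04 and 0.16, limma adjusted p = 0.755 and 0.201). Its partner ATXN1 fell with JQ1 from 703 ± 67.6 to 351 ± 32.4 (log2 -1.0, limma adjusted p = 5.22e-08). With I-BET 762 ATXN1 had 472 ± 28.0 (log2 -0.57, limma adjusted p = 8.89e-05), under 1.5-fold as deposited and past it under both rescalings. With equal library totals the JQ1 differences of DUSP2, MAP2K2 and CIC and the I-BET 762 difference of DUSP1 changed sign, and none of the 8 tested feedback genes did.

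**Figure D4:**
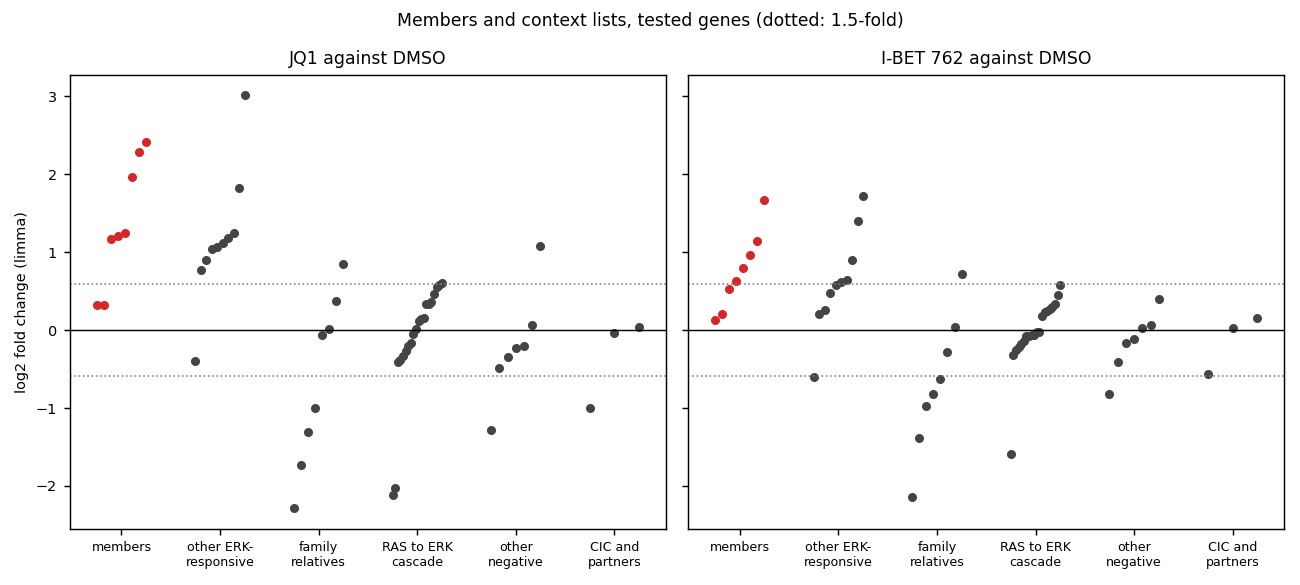
Log2 fold change (vertical axis, limma) of each tested gene in the ERK feedback set (red) and in 5 related lists (dark grey), for JQ1 against DMSO (left) and I-BET 762 against DMSO (right), with dotted lines at 1.5-fold. The feedback genes and most other ERK-responsive genes lie above 0, the family relatives spread from -2.28 to 0.85 with JQ1, and most genes of the cascade lie between the dotted lines.

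The genes whose profiles over the 10 libraries were most like those of the members were found by the root mean square difference of log2 values, each profile centred on its own mean. SPRED1 was matched most closely, by PPP2R1B at 0.0251, and SPRED2 by CPT2 at 0.0522, which are the members that moved least. ETV4 was nearest to SLC66A3 at 0.0870, DUSP5 to KLF10 at 0.0883, SPRY4 to the long non-coding RNA LUCAT1 at 0.105 and ETV5 to PELI1 at 0.111. LUCAT1 went from 254 ± 9.87 normalized counts with DMSO to 1069 ± 56.0 with JQ1 and 523 ± 65.4 with I-BET 762. The nearest to DUSP6 was RNU5A-1 at 0.156 and to SPRY2 SOBP at 0.178, both low transcripts. Among the members, the closest pairs were SPRED1 with SPRED2 at 0.109, DUSP5 with ETV4 at 0.176, SPRY2 with ETV4 at 0.198 and DUSP6 with SPRY4 at 0.221. The measure is not scaled by how far a gene moved, so flat profiles lie close together. The root mean square of the centred profile itself was 0.141 for SPRED1 and 0.155 for SPRED2. It was 0.954 for DUSP6 and 1.01 for ETV5, a pair at 0.261.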

How the data were processed

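SK-UT-1 cells were treated with DMSO, JQ1 or I-BET 762, and 10 of 12 labelled libraries had values; DMSO replicate 16 and I-BET 762 replicate 24 are not analysed here. The study's methods say that outlying samples were left out after a look at boxplots and principal components, which can narrow the spread. Per the submitters' processing notes, reads were checked with FastQC 0.73, trimmed with Trimmomatic, mapped to hg38 with HISAT2 2.2.1, counted with featureCounts 2.0.3 and normalized with DESeq2. The values deposited by the authors are log2 of the normalized count plus 1, per gene symbol. Of these values, 99.74% to 99.77% came out as whole reads within 0.02 reads once divided by the step of each library, which gave 35564586 to 39658989 reads on genes. The depth limits low genes: 3 reads correspond to 2.73 to 3.30 normalized counts, and this floor covers counting error only.

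Genes with a normalized count of at least 10 in at least 3 libraries were fitted with limma 3.58.1 (R 4.3.3, trended empirical Bayes) on the log2 values as deposited, with all 3 groups in 1 model, and p-values were adjusted by Benjamini-Hochberg over all 14839 genes. The fit was also run on simulated counts with far fewer changed genes than these data and the same changes for both inhibitors. No result here rests on that run. The deposited values are not counts, so limma took the place of a count test, and limma-voom on the recovered reads was an alternative. Others were pseudocounts of 0.5 and 5, other filters, 2 rescalings, no trend, only the compared groups, other fold limits and leaving out each library. Fold changes are on the log2(value + 1) scale and understate those of low genes. Levels per kilobase use exon lengths of Gencode V44 on GRCh38, while the authors counted on another Gencode release of the same assembly. All members are named; other genes come from written lists and are named when called, or as relatives, core kinases, CIC or HEXIM1, and 1 most similar gene is named per member; some core kinases are not reported here. The members and lists were chosen with earlier results of these data known.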

Additional observations from a re-analysis of the deposited data

How the results depend on the processing

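Across 21 other settings, 485 of 501 fold changes of the tested feedback genes kept their direction and their side of the threshold, 9 lost the call, 7 gained it and none reversed. Many of these could not reverse, because the setting leaves the log2 difference itself unchanged. Such settings are the other filters, no trend, only the compared groups, the other fold limits and leaving out a library of the group not compared. There only the p-value or the limit could move. With JQ1, leaving out any library left 6 genes called, and with I-BET 762 it left 4 to 5, where SPRY2 was lost without DMSO replicate 13 or I-BET 762 replicate 22. In the direct comparison of the compounds it left 4. With JQ1, a fold limit of 2 in place of 1.5 left all 6 genes called, where the share of all tested genes called in either direction went from 36.1% to 19.9%. With I-BET 762 it left 2 called genes in place of 5, where that share went from 26.9% to 14.2%. Between the compounds it left 1 in place of 4, while no fold limit gave 7, where 13.3% of all tested genes were higher. These changes of count follow from the limits themselves, since several members lie between them. Rescaling to equal totals moved the median of all genes to -0.18 with JQ1, -0.10 with I-BET 762 and -0.09 between the compounds, and the members' medians to 1.04, 0.62 and 0.52. Limma-voom on the recovered reads called 6, 5 and 4 members. SPRY2 was not tested where a mean of at least 100 normalized counts was asked. No paired analysis was possible because the replicate numbers of the groups are all different. Depth limits DUSP4 and SPRY1, at 0 to 10 reads a library.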
